A study of Mus musculus with 8 samples.

Results

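The genes described are 10 surface proteins by which muscle stem cells are recognised or purified, taken by symbol from a table of 24630 genes: Vcam1, Cdh15, Cdh2, Cd34, Cxcr4, Met, Ncam1, Cd82, Erbb3 and Megf10. All 10 were found in the table, once each. Only Vcam1 among them was a gate of the sort in this study. Their messenger RNA was measured in freshly sorted, quiescent muscle stem cells of C57BL/6 males. The young group held 4 mice at 4 months of age and the old group 4 mice at 22 months, and each mouse gave 1 library. Cells from the limb muscles had been gated against CD45 (Ptprc, leukocytes), CD31 (Pecam1, endothelium) and Sca1 (Ly6a, fibro-adipogenic cells) and for VCAM, and both ages carry no transgene or treatment in the labels. The comparison asks whether transcripts of the markers that define the sorted population differ with age.

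Muscle stem cells, or satellite cells, lie between the muscle fibre and its basal lamina, and their surface proteins hold them there and receive the signals that wake them. Cadherins and Ncam1 bind the fibre, Vcam1 binds integrins on other cells, and Met, Cxcr4 and Erbb3 are receptors of growth factors and a chemokine. A transcript level is not a level of protein at the surface, which also depends on shedding and turnover.

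Values are given on 2 scales, because the choice of scale moved every gene. The deposited scale is RPKM (reads per kilobase of gene per M reads, M standing for mega) with the authors' library sizes, which were 1.14 to 1.64 times the reads in genes in the young libraries and 0.678 to 0.849 times in the old. The second scale, called library totals, divides by the reads in genes themselves, so a value is a share of reads per kilobase. The young libraries held 1.91 to 6.56 M reads in genes and the old 20.1 to 24.9 M, so every young library was shallower than every old one. With reads thinned to equal totals, on the scale of library totals, 1 marker was still called higher and 3 lower, Vcam1 at 0.80 (limma adjusted p = 0.0211) and Cdh15 at -0.95 (adjusted p = 0.0070), while calls over all genes went from 700 higher and 722 lower to 563 and 529. The 5703 genes averaging 5 RPKM or more were tested with limma on log2(value + 1), which understates the change of low genes, and with Benjamini-Hochberg adjustment at 0.05. Across those genes the median log2 fold change, old minus young, was 0.64 as deposited and -0.01 by library totals. A gene "rose" if it was called higher on both scales, and "fell" if it was called lower by library totals. All 9 defining genes of muscle stem cells, Pax7 and Myf5 among them, passed the filter, with summed levels of 8940 to 10625 reads per M reads in genes in young and 7654 to 9621 in old libraries. On library totals 1 of the 9 was called higher and 4 lower (median log2 fold change -0.34), beside 12.3% and 12.7% of all tested genes. As deposited 3 were called higher and 1 lower (median 0.35), beside 68.1% and 1.12%. On library totals Myod1 rose (0.78), and Calcr (-1.53), Fgfr4 (-0.86) and Chodl (-0.80) were among those that fell. Fgfr4 and Chodl were not called as deposited.

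Of the 10 markers, Vcam1 alone rose, and Cdh15, Megf10 and Cd34 fell as shares of reads. Met, Cd82, Cxcr4 and Ncam1 were called higher in old cells on the deposited scale but not on library totals. Cdh2 and Erbb3, with means between 1 and 2 RPKM, were below the filter and were tested among the 11096 genes averaging 1 RPKM or more. Neither was called on either scale, where 42.1% of those genes were called higher and 5.34% lower as deposited, and 7.27% higher and 22.3% lower by library totals. Of the 8 markers that passed the filter, 5 were called higher and 0 lower on the deposited scale, where 69.2% of all tested genes were called, 68.1% higher and 1.12% lower. At an unadjusted p under 0.05 as well, none of the 8 was lower there, and limma-voom on recovered reads also called 5 higher and 0 lower. On library totals 1 of 8 was called higher and 3 lower, where 24.9% of all tested genes were called, 12.3% higher and 12.7% lower. The 8 had a median log2 fold change of 0.57 as deposited and -0.07 by library totals, beside 0.64 and -0.01 for all tested genes. On the deposited scale 5 of the 8 had no overlap between groups with old above (background 61.2%) and 0 with old below (0.473%), and on library totals 0 with old above (13.8%) and 1 with old below (13.4%). In bulk samples of this kind, fewer cells of a type and less RNA per cell cannot be told apart.

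**Figure D1:**
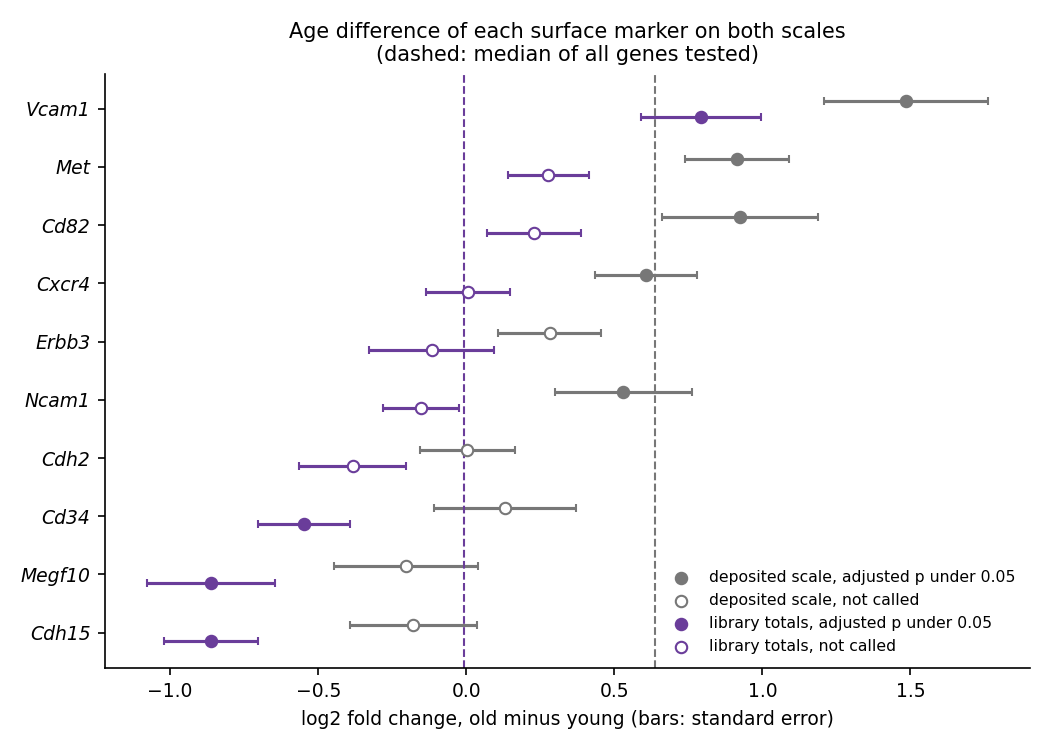
Each marker's log2 fold change, old minus young, with its standard error (n = 4 young and 4 old libraries), as deposited (grey) and by library totals (purple); filled points passed an adjusted p of 0.05 (limma) and dashed lines mark the medians of the genes tested, at 0.64 and -0.01. Vcam1, Met and Cd82 lie to the right of both medians. Cdh15, Megf10, Cd34 and Ncam1 lie to the left of both, and Cxcr4 lies close to each median. Cdh2 and Erbb3 also lie left of the lines, but the lines leave these 2 genes out. They were fitted among 11096 genes with medians of 0.36 as deposited and -0.19 by library totals. Against those, Cdh2 lies left on both scales, and Erbb3 lies left as deposited and right by library totals (-0.12).

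Vcam1, an immunoglobulin-family adhesion receptor for integrin alpha4 beta1, is the protein for which the cells were gated (GRCm38 chr3:116109949-116129688, minus strand). On the deposited scale it stood at 212, 139, 198 and 335 RPKM in the young libraries and at 500.4, 928, 561 and 464 RPKM in the old. All 4 old values lay above all 4 young values, as they did for 61.2% of tested genes. The young mean was 221 ± 82.3 RPKM and the old mean 613 ± 213 RPKM (SD, n = 4 each), and the log2 fold change was 1.49 ± 0.28 (SE, limma adjusted p = 0.000141). On library totals the values were 260.2, 227, 224 and 386 in young and 425, 629, 468 and 369 in old libraries, in reads per kilobase per M reads in genes. There 3 of 4 old libraries lay above the highest young library, and old replicate 4 lay below young replicate 4. The log2 fold change was 0.79 ± 0.20 (SE, limma adjusted p = 0.0158), and without the 2 shallowest libraries, young replicates 1 and 2, it was 0.65 with an adjusted p of 0.110. Vcam1 took 0.243% ± 0.0675 of all reads in genes in young and 0.419% ± 0.0991 in old libraries (SD, n = 4), from 3846 to 19467 reads and from 68066 to 138630 reads. By deposited level it ranked between 99 and 186 among the genes of the table in young and between 53 and 88 in old libraries. An antisense gene, Gm43109, shares 61 exon bases with Vcam1, and a kit that does not mark strand cannot tell apart reads in those bases.

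Markers of tendon cells moved with age in the same libraries. Their summed level was 715 to 1137 reads per M reads in genes in young and 1877 to 5884 in old libraries. All 6 tested of 7 were called higher on both scales, beside 68.1% of all tested genes as deposited and 12.3% on library totals. Scx was at 0 in at least 1 library. Within the old group the orders differed: old replicate 2 had the highest Vcam1, 629, and the lowest tendon sum, 1877, while old replicate 1 had the highest tendon sum, 5884, and a Vcam1 of 425 on library totals. The part of these cells in the level of Vcam1 was not tested.

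**Figure D2:**
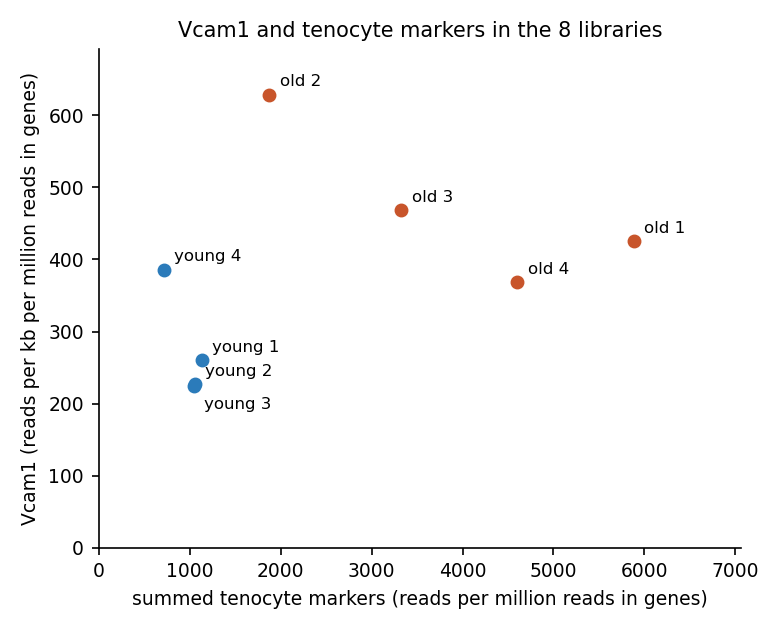
Vcam1 (vertical axis, reads per kilobase per M reads in genes) against the summed level of 7 tendon cell markers (horizontal axis, reads per M reads in genes) in the 8 libraries, 1 point per animal. The 4 old libraries lie to the right of the 4 young ones, and the old library with the lowest tendon sum, replicate 2, has the highest Vcam1.

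The cadherins link the stem cell to its fibre through homophilic contacts. Cdh15 (M-cadherin, chr8:122847966-122867397, plus strand) was the most abundant of the 10 after Cd82 and Vcam1 in young libraries. Its deposited values were 58.8, 51.7, 66.1 and 77.4 RPKM in the young and 62.5, 52.1, 63.5 and 45.4 RPKM in the old libraries, and the groups overlapped. As shares of reads the values were 72.0, 84.6, 75.1 and 89.1 in young and 53.1, 35.3, 53.0 and 36.1 in old libraries. On that scale every old library lay below every young one, a pattern that Cdh15 alone showed among the 10 markers and that 13.4% of tested genes showed. The mean fell from 80.2 ± 8.01 to 44.3 ± 10.0 (SD, n = 4). The log2 fold change was -0.86 ± 0.16 (SE, limma adjusted p = 0.00396), against -0.18 ± 0.21 for RPKM as deposited (adjusted p = 0.456). The call held in each of 18 alternatives. Its rank by level went from between 497 and 598 in young to between 877 and 1341 in old libraries.

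Cdh2 (N-cadherin, chr18:16588877-16809246, minus strand) was expressed far below Cdh15. It was measured from 30 to 79 reads per young library and 122 to 216 per old library. The deposited values were 1.13, 1.31, 1.31 and 1.15 RPKM in the young and 1.57, 1.45, 1.05 and 0.915 RPKM in the old libraries, with the young values inside the old range. For comparison, 1411 olfactory and vomeronasal receptor genes, which are silent in muscle, averaged 0.185 to 0.609 RPKM in the young and 0.0414 to 0.0613 RPKM in the old libraries. On library totals the log2 fold change of Cdh2 was -0.38 ± 0.18 (SE, limma adjusted p = 0.125), with 3 of 4 old libraries below the lowest young one. A ratio within a library does not depend on the scale: Cdh15 exceeded Cdh2 by a geometric mean of 51.4 times in young and 45.6 times in old libraries. The difference in the log2 ratio was -0.17 (exact two-sided permutation test over 70 assignments, p = 0.457, n = 4 each), within the spread between animals.

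Ncam1 is an adhesion molecule of the immunoglobulin family, found on muscle and nerve cells (chr9:49502136-49798925, minus strand). Its deposited values were 57.8, 31.7, 65.2 and 53.1 RPKM in the young and 65.5, 85.5, 71.5 and 70.9 RPKM in the old libraries. The groups did not overlap, but the lowest old and highest young values lay within 1 RPKM, and young replicate 2 stood well below the other young libraries. The log2 fold change of 0.53 ± 0.23 (SE, limma adjusted p = 0.0446) was lost without any 1 of young replicates 1, 2 and 4 and old replicates 2, 3 and 4, with adjusted p-values of up to 0.116. On library totals Ncam1 was the steadiest marker of the old group relative to its mean, at 55.6, 57.9, 59.6 and 56.3, while the young libraries stood at 70.9, 51.8, 74.1 and 61.2. The old values lay inside the young range, and the log2 fold change was -0.15 ± 0.13 (SE, limma adjusted p = 0.404). Gm11149, an antisense gene, shares 417 exon bases with Ncam1, and without strand, reads in those bases cannot be assigned to either gene; Gm11149 has its own row, at up to 0.984 RPKM.

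Cd34 is a sialomucin shared by stem cells of muscle and blood and by endothelium (chr1:194938819-194961279, plus strand). It stood at 43.2, 25.6, 58.0 and 47.4 RPKM in the young and at 35.0, 56.5, 50.8 and 44.0 RPKM in the old libraries, and the old range lay inside the young range. The log2 fold change on the deposited scale was 0.13 ± 0.24 (SE, limma adjusted p = 0.631). As shares of reads the young libraries stood at 53.0, 41.8, 65.9 and 54.6 and the old at 29.7, 38.3, 42.4 and 34.9. On that scale 3 of 4 old libraries lay below the lowest young library, and old replicate 3 just above it. The share fell by 0.55 ± 0.16 on the log2 scale (SE, limma adjusted p = 0.0245), but the call was lost without any 1 of young replicates 1, 3 and 4 and old replicates 1 and 4, with adjusted p-values of up to 0.0723. Endothelial cells express Cd34, and their 12 markers summed to 570 to 682 reads per M reads in genes in young and 218 to 559 in old libraries. Of these markers 6 passed the filter, and 0 were called on either scale. Their part in the lower share of Cd34 was not tested. Gm16897, an antisense gene, shares 148 exon bases with Cd34.

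Vcam1 and Cd34 are both used for positive selection of these cells, and their ratio was compared within each library. Vcam1 exceeded Cd34 by 4.91, 5.42, 3.41 and 7.06 times in the young libraries and by 14.3, 16.4, 11.0 and 10.6 times in the old. Every old ratio lay above every young one, on either scale, since the scale cancels. The ratio was 2.56-fold higher in old libraries (log2 difference 1.35), with the smallest p that 70 assignments allow (exact two-sided permutation test, p = 0.0286, n = 4 each), which adjusted over the 3 ratios examined came to 0.0857. The ratio therefore did not pass the adjusted threshold. With 70 assignments no single ratio of the 3 could pass it alone, even with the groups fully apart. The adjusted p therefore does not decide whether this ratio differed with age.

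Sequence next to the start of transcription was at hand for 5 of the 10 markers. It is shown for Cd34 and for Cxcr4, the chemokine receptor on the same chromosome. This pair was picked for a difference: Cd34 fell as a share of reads, and Cxcr4 was called on the deposited scale only. The pair does not stand for the other markers, and a link between sequence and level was not tested. Each window runs from 250 to 11 bases before the RefSeq start on GRCm38.p6, 5′ to 3′ on the strand of the gene, at chr1:194938571-194938810 (plus strand) for Cd34 and chr1:128592310-128592549 (minus strand) for Cxcr4. Capitals mark matches on either strand to 2 short motifs, GGGCGG, the binding sequence known for Sp1, and TATAAA, the core promoter element.
Cd34: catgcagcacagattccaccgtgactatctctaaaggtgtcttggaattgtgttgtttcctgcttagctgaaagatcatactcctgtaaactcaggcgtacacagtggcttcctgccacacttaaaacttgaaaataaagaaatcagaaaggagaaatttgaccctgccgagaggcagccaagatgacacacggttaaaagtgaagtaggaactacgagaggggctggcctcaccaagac
Cxcr4: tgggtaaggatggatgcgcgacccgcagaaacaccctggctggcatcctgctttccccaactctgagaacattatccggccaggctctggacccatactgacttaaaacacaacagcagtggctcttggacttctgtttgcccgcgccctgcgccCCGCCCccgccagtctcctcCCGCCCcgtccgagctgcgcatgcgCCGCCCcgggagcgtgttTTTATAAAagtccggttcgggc
The Cxcr4 window holds 3 matches to GGGCGG and 2 overlapping matches to TATAAA on opposite strands, and its GC content is 62.1%. The Cd34 window has a GC content of 45.8% and neither motif, and CANNTG, the E-box of myogenic factors, is in neither window. Of 32851 RefSeq windows of this length 31.3% hold GGGCGG, 12.1% hold TATAAA and 65.0% hold CANNTG, and the median GC content is 52.1%. A match describes letters only.

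Cd82, a tetraspanin that organises receptors in the membrane, was the most abundant marker in every library (chr2:93419111-93463140, minus strand). It stood at 730.1, 436, 794 and 928 RPKM in the young and at 1075, 1932, 1238 and 1184 RPKM in the old libraries. The groups did not overlap on this scale, and the log2 fold change was 0.92 ± 0.26 (SE, limma adjusted p = 0.00438). Without young replicates 1 and 2 it was 0.62 with an adjusted p of 0.0605. As shares of reads the values were 895, 712, 902 and 1069 in young and 913, 1309, 1033 and 941 in old libraries. On that scale old replicate 2 alone lay above the highest young library, and the log2 fold change was 0.23 ± 0.16 (SE, limma adjusted p = 0.318). Cd82 was among the 40 highest genes of every library, ranking between 29 and 40 in young and between 24 and 36 in old.

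**Figure D3:**
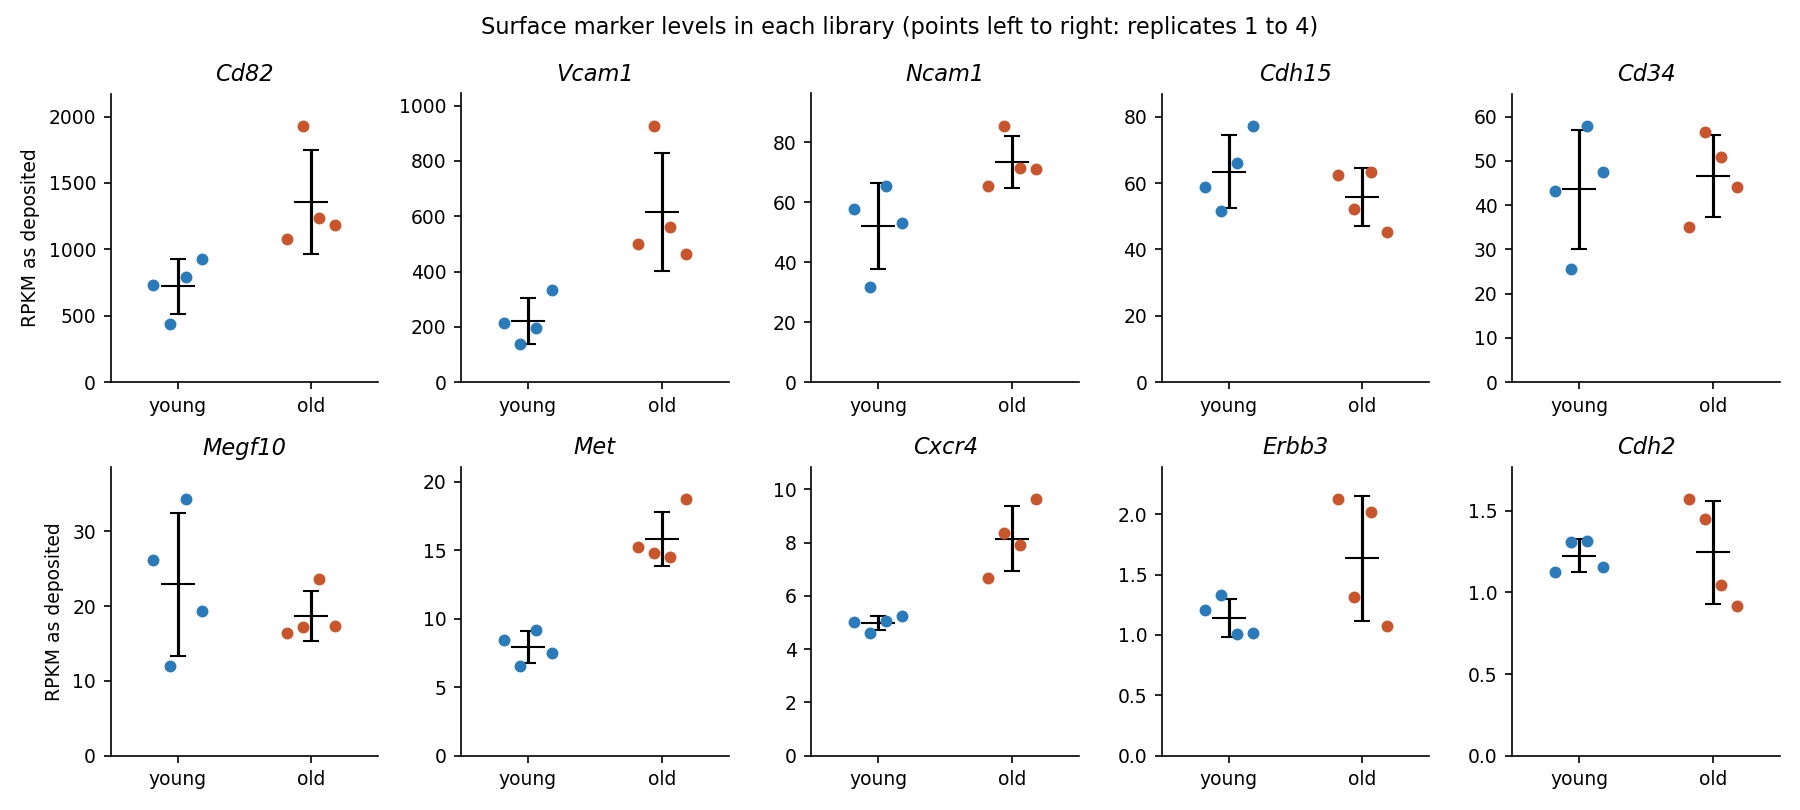
RPKM as deposited (vertical axes, each from 0) of the 10 markers in 4 young (blue) and 4 old (orange) libraries, 1 point per animal, with the mean and SD in black. For Cd82, Vcam1, Ncam1, Met and Cxcr4 all old points lie above all young points, and young replicate 2 is the lowest young point for 8 of 10 markers.

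**Figure D4:**
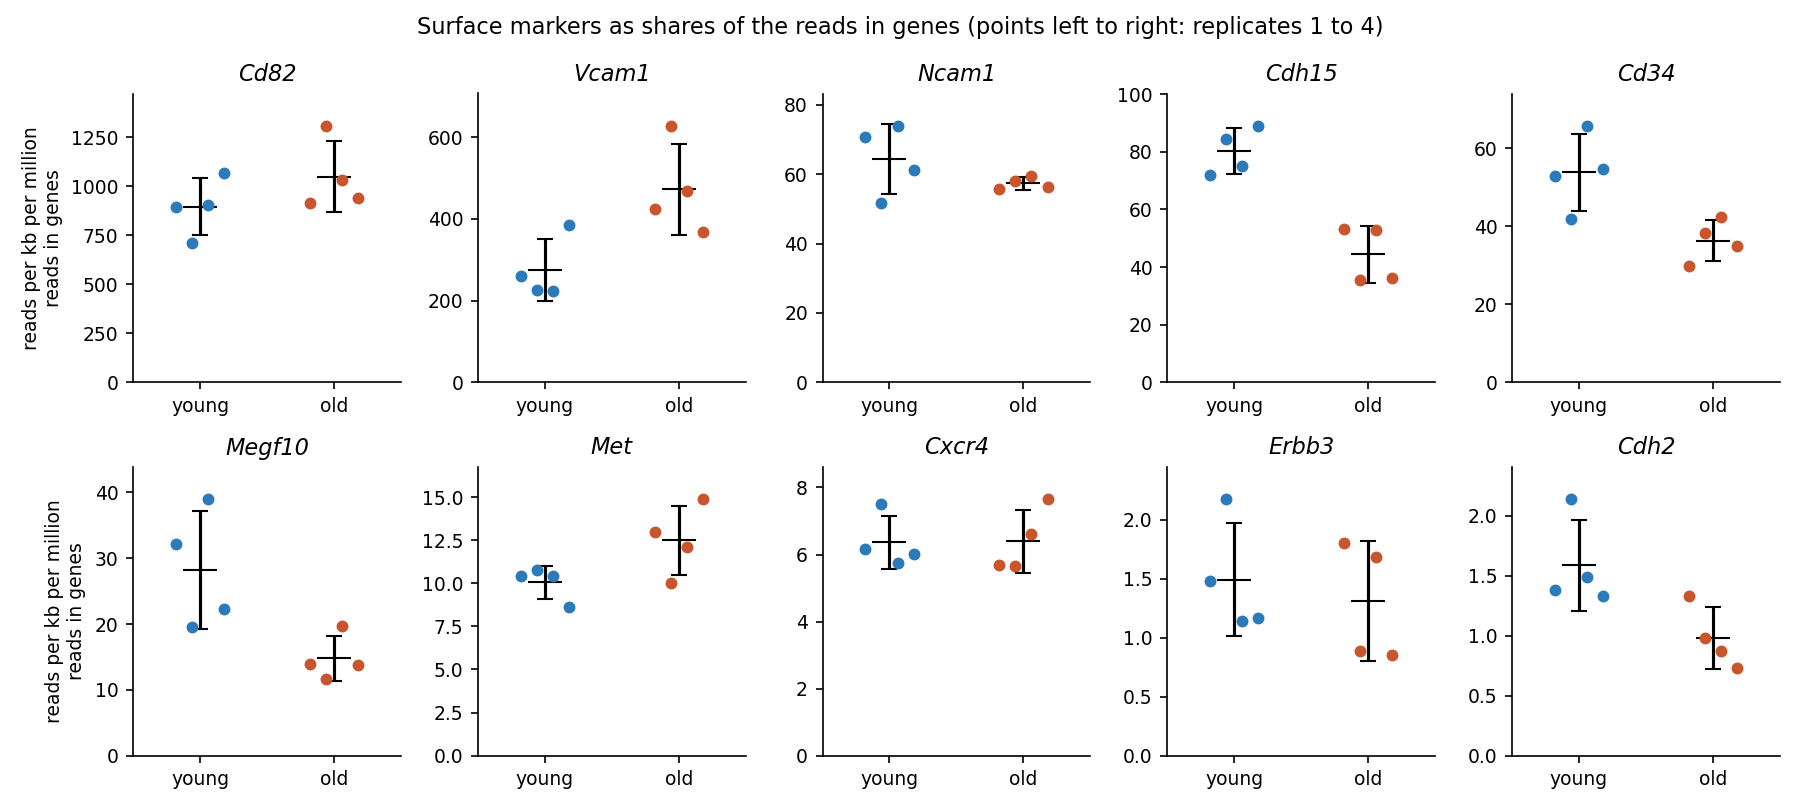
The same markers on library totals (reads per kilobase per M reads in genes, vertical axes from 0), with points, means and SD as before. Only Cdh15 has no overlap between the groups, with old libraries at 35.3 to 53.1 and young libraries at 72.0 to 89.1.

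Met is the receptor tyrosine kinase for hepatocyte growth factor, a signal that wakes quiescent satellite cells (chr6:17463800-17573980, plus strand). It stood at 8.48, 6.58, 9.20 and 7.51 RPKM in the young and at 15.2, 14.8, 14.5 and 18.7 RPKM in the old libraries, with a wide gap between the groups. Its log2 fold change of 0.91 ± 0.18 (SE, limma adjusted p = 0.000198) was lower than that of Vcam1 and above the median over the genes tested. As shares of reads the young libraries stood at 10.4, 10.8, 10.4 and 8.65 and the old at 12.9, 10.0, 12.1 and 14.9. There 3 of 4 old libraries lay above all young libraries and old replicate 2 lay among them, and the log2 fold change was 0.28 ± 0.14 (SE, limma adjusted p = 0.157).

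Cxcr4, the receptor of the chemokine Cxcl12, was low (chr1:128588199-128592293, minus strand). It was measured from 26 to 68 reads per young library and 206 to 288 per old library. The deposited values were 5.02, 4.60, 5.05 and 5.23 RPKM in the young and 6.68, 8.37, 7.91 and 9.64 RPKM in the old libraries, without overlap. The log2 fold change of 0.61 ± 0.17 (SE, limma adjusted p = 0.00417) was close to 0.64, the median over the genes tested. On library totals the means were 6.36 ± 0.793 in young and 6.40 ± 0.943 in old libraries (SD, n = 4), and the log2 fold change was 0.01 ± 0.14 (limma adjusted p = 0.982). The ratio of Met to Cxcr4 was 1.69, 1.43, 1.82 and 1.44 in young and 2.28, 1.77, 1.83 and 1.94 in old libraries. The groups overlapped by 1 library, and the log2 difference of 0.30 had p = 0.0571 (exact two-sided permutation test over 70 assignments, n = 4 each), or 0.0857 adjusted over the 3 ratios.

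Erbb3, a neuregulin receptor that signals through its partner kinase Erbb2, was with Cdh2 the lowest of the markers (chr10:128567523-128589652, minus strand). It was measured from 24 to 45 reads per young library and 107 to 232 per old library. The deposited values were 1.21, 1.33, 1.00 and 1.01 RPKM in the young and 2.13, 1.31, 2.02 and 1.08 RPKM in the old libraries. Old replicates 1 and 3 stood above all young libraries and old replicates 2 and 4 among them. The log2 fold change was 0.28 ± 0.17 (SE, limma adjusted p = 0.198) as deposited and -0.12 ± 0.21 (adjusted p = 0.695) by library totals. Neither value passed the threshold.

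Megf10, a receptor with many EGF-like repeats that is known to regulate satellite cell proliferation, had the widest spread of the markers among young animals as deposited, relative to its mean (chr18:57133090-57297467, plus strand). It stood at 26.2, 11.9, 34.3 and 19.3 RPKM in the young and at 16.4, 17.2, 23.6 and 17.4 RPKM in the old libraries, and all old values lay inside the young range. As shares of reads the young libraries stood at 32.1, 19.5, 39.0 and 22.3 and the old at 14.0, 11.7, 19.7 and 13.8. On that scale 3 of 4 old libraries lay below all young ones, and old replicate 3 overlapped the lowest young library. The share fell by 0.86 ± 0.22 on the log2 scale (SE, limma adjusted p = 0.0146), against -0.20 ± 0.24 (adjusted p = 0.455) as deposited. Without young replicate 2 the deposited value was -0.47 with an adjusted p of 0.0423.

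Within a library RPKM can be compared between genes, and the order of the markers was nearly the same at both ages. In young libraries it ran Cd82, Vcam1, Cdh15, Ncam1, Cd34, Megf10, Met, Cxcr4, Cdh2 and Erbb3, from high to low. The ranges of neighbours overlapped for Cdh15 and Ncam1, Ncam1 and Cd34, and Cd34 and Megf10, although in each of these pairs the first was higher in 4 of 4 libraries. Cdh2 exceeded Erbb3 in 2 of 4 young libraries. In old libraries Ncam1 stood above Cdh15 with ranges apart, at a ratio of means of 1.31, whereas Cdh15 had stood above Ncam1 in young libraries at a ratio of 1.22. Overlapping neighbours in old libraries were Cdh15 and Cd34, Megf10 and Met, and Erbb3 and Cdh2, each ordered alike in 3 of 4 libraries. The lead of Cd82 over Vcam1 was 3.27 times in young and 2.21 times in old libraries by the ratio of means. Together the 10 markers took 0.666% ± 0.110 of reads in genes in young and 0.849% ± 0.151 in old libraries (SD, n = 4). Most of this was Vcam1, at 0.243% in young and 0.419% in old, and Cd82, at 0.269% and 0.315%. The sum therefore does not describe the other markers, of which Cdh15, Megf10 and Cd34 fell in share and none rose.

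**Figure D5:**
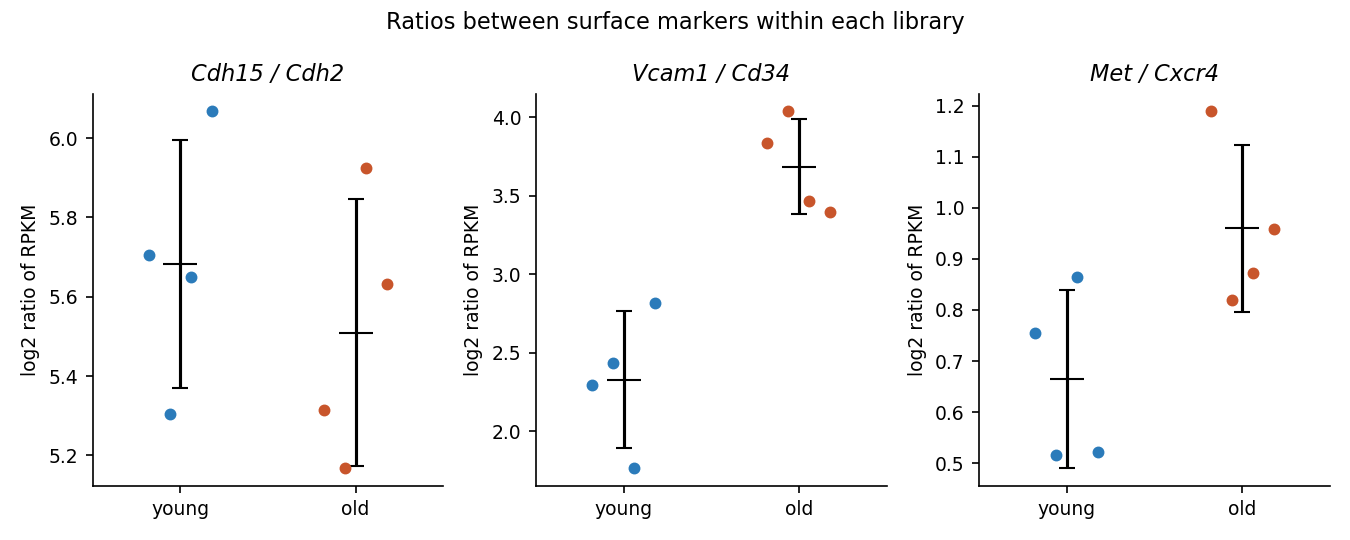
Log2 ratios of RPKM within each library for Cdh15 to Cdh2, Vcam1 to Cd34 and Met to Cxcr4, 1 point per animal with the mean and SD in black; the vertical axes do not start at 0. The groups are apart for Vcam1 to Cd34 and overlap for the other pairs.

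Ligands and partners of the markers were read from the same fit. Of 30 such genes 14 passed the filter, with a median log2 fold change of 0.10 on library totals. On that scale 1 was called higher and 3 lower, beside 12.3% and 12.7% of all tested genes. As deposited 9 were called, all higher (median 0.76), where 68.1% of all tested genes were called higher. Ctnnb1, the beta-catenin that ties cadherins to actin, rose by 0.49 ± 0.12 (log2, library totals) (SE, limma adjusted p = 0.0147). Jup, or plakoglobin, which takes the same place on cadherins, fell in share (-0.59 ± 0.11, adjusted p = 0.00474), as did the share of Gab1, a docking protein of Met (-0.62 ± 0.16, adjusted p = 0.0142). Cxcl12, the ligand of Cxcr4, fell in share (-1.28 ± 0.35, adjusted p = 0.0219) and overlapped between groups, with deposited means of 59.9 ± 24.9 RPKM in the young and 41.5 ± 25.7 RPKM in the old libraries (SD, n = 4). Hgf, the ligand of Met, averaged 1.59 ± 0.175 RPKM at the young age and 4.21 ± 1.51 RPKM at the old age. Among genes averaging 1 RPKM or more its log2 fold change was 0.96 ± 0.19 as deposited (SE, limma adjusted p = 0.00208) and 0.46 ± 0.20 by library totals (adjusted p = 0.0975). Erbb2 stood at 1.60 ± 0.361 RPKM in the young and 1.92 ± 0.637 RPKM in the old libraries. Itga4, the integrin chain that binds Vcam1, and Nrg1, a ligand of Erbb3, averaged 0.355 and 0.586 RPKM in the young and 0.0676 and 0.0643 RPKM in the old libraries, near the level of the silent receptor families at each age.

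Of 13 genes for shedding and turnover of such proteins 9 passed the filter. As deposited 6 were called, all higher, where 68.1% of all tested genes were called higher. On library totals 2 were called, both lower, where 12.7% of all tested genes were called lower. The 2 were Adam10, a protease that sheds cadherins and other surface proteins (-0.43 ± 0.11, SE, limma adjusted p = 0.0181), and Ncstn, a subunit of gamma-secretase (-0.65 ± 0.17, adjusted p = 0.0185). The list's median log2 fold change was -0.10 by library totals and 0.54 as deposited. Of 15 other cadherins 2 passed the filter, and Cdh13 fell in share (-0.43 ± 0.14, adjusted p = 0.0385). The cadherins Cdh18, Cdh20 and Cdh22 had no read in at least 1 library.

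Among 21 other tetraspanins, the family of Cd82, 13 passed the filter. On library totals 2 were called higher and 4 lower (median -0.11), beside 12.3% and 12.7% of all tested genes. As deposited 7 were called higher and 0 lower (median 0.51), beside 68.1% and 1.12%. Cd63, a tetraspanin of late endosomes, rose by 0.53 ± 0.13 on the log2 scale of library totals (SE, limma adjusted p = 0.0131), and Tspan4 rose by 0.48 ± 0.11 (adjusted p = 0.0104). Tspan13, Tspan12 and Tspan6 fell in share, with log2 fold changes of -1.12, -0.94 and -0.80.

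Of 30 further surface markers of muscle stem cells 23 passed the filter. On library totals 5 were called higher and 5 lower, beside 12.3% and 12.7% of all tested genes. On the deposited scale 14 were called higher and 2 lower, beside 68.1% and 1.12% of all tested genes. Cd44, a hyaluronan receptor, rose by 1.28 ± 0.21 (log2, library totals) (SE, limma adjusted p = 0.00211), and Cd200, an immunoglobulin-family surface protein, rose with 0.87 ± 0.16 (adjusted p = 0.00362). Vldlr, a lipoprotein receptor, rose less (0.55 ± 0.18, adjusted p = 0.0484). Calcr, the calcitonin receptor of quiescent satellite cells, fell with -1.53 ± 0.16 (adjusted p = 0.000292), and Dag1, or dystroglycan, the laminin receptor, fell with -1.47 ± 0.18 (adjusted p = 0.000542). Both were also called lower on the deposited scale, with -0.85 and -0.78, which none of the 10 markers was.

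The genes against which the cells were gated were detected at both ages, with Pecam1 and Ly6a between the levels of Cxcr4 and Cd34. Ptprc averaged 1.04 ± 0.517 RPKM in the young and 0.241 ± 0.164 RPKM in the old libraries, Pecam1 12.9 ± 2.13 and 12.5 ± 5.70 RPKM, and Ly6a 16.2 ± 3.43 and 19.2 ± 8.96 RPKM (SD, n = 4). Together they made up 121 to 201 reads per M reads in genes in young and 47.0 to 139 in old libraries. Leukocyte markers summed to 60.1 to 127 in young and 30.2 to 77.1 in old libraries, with Cd3e at 0 in at least 1 library. The silent receptor families also averaged higher in young libraries (0.185 to 0.609 RPKM) than in old (0.0414 to 0.0613 RPKM). The part of such background in Ptprc and the leukocyte sums was not tested. Markers of fibro-adipogenic cells summed to 5425 to 7073 in young and 4072 to 7157 in old libraries. Of their 9 tested genes 3 were called higher and 1 lower on library totals, beside 12.3% and 12.7% of all tested genes. Markers of Schwann cells, which express Ncam1 and Erbb3, summed to 157 to 238 in young and 121 to 258 in old libraries. Those of pericytes summed to 877 to 1109 and 474 to 1086. Muscle fibre markers summed to 359 to 744 in young and 127 to 769 in old libraries. The part of these cells in the values of the 10 markers was not tested.

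Among the genes whose levels over the 8 libraries followed Vcam1 most closely, by Pearson correlation on log2(value + 1) of library totals, were Dmtf1 (r = 0.97), Srprb (0.97), Ube2v2 (0.97) and Dnaja2 (0.96). Among the markers Cd82 followed Vcam1 most closely (r = 0.84), while Megf10 (-0.76), Cdh15 (-0.70), Cdh2 (-0.70) and Cd34 (-0.55) ran against it. These points share libraries, totals and the age split, so the values are descriptions over 8 libraries.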

How the data were processed

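The authors deposited 1 table of RPKM for 24630 genes in 8 libraries. Per the submitters' processing notes Trim Galore, STAR, featureCounts, Subread and edgeR were used with the builds mm10 and GRCm38; their versions and settings were not given in the sources used here. RPKM values of 19019 genes, the 10 markers among them, were whole multiples of 1 read (tolerance 0.03) at the GENCODE M21 exon length. For the other 4442 genes with reads, the shortest length that made their values whole was searched for. Their fit therefore does not test the recovery. All these genes together gave the reads in genes, 1.91 to 24.9 M per library. Intervals from these reads would cover counting error only. Zeros had been stored as small positive values in 7125 genes. Coordinates are from GENCODE M21. Each sample is 1 animal.

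Old was compared with young with limma 3.58.1 in R 4.3.3, using a mean-variance trend, on log2(RPKM + 1) and on the same values divided by library totals. Genes averaging 5 RPKM or more were tested. Ratios were compared by exact permutation (Python 3.11.15, numpy 2.4.6). The members and lists were chosen with earlier results of these data known. Named genes are the 10 markers, up to 3 higher and 3 lower genes of each list by change on library totals, the sort genes and fixed ligands or partners, and the 5 genes most correlated with Vcam1, 1 of which is not reported here. In the marker lists of other cell types only sums and counts are given. Other pseudocounts, filters, left-out libraries, a replicate block, thinned reads and limma-voom were tried as alternatives. Spike-in RNA is not analysed here.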

Additional observations from a re-analysis of the deposited data

Results flagged for a closer look

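Megf10 in old replicate 3, at 23.6 RPKM, stood apart from the other old libraries, which lay between 16.4 and 17.4 RPKM. The gap took 0.870 of the range of the old group, above Dixon's critical value for 4 samples. It was the 1 such value among 46 groups examined, and chance gives about 1 in 20.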

How the results depend on the processing

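On the deposited scale the number of markers called was 5, and 3 either with no filter on low values or without young libraries 1 and 2; with 1 library left out it was 4 to 5. On library totals it was 4, and 3 to 4 with 1 library left out. The replicate numbers did not pair the animals (correlations of deviations -0.24 to 0.39, 1 of 4 over 0.1); with them as a replicate block 4 markers were called on each scale, Ncam1 being lost on the deposited scale, and 3559 genes were higher and 66 lower there.

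Directions reversed only for values that were not called. For Cdh2 on the deposited scale they were -0.0058 at a pseudocount of 0.1, -0.0025 without young libraries 1 and 2, -0.024 with limma-voom (added after seeing the data), and -0.066 to 0.076 with 1 library left out. Cd34 there gave -0.19 without young libraries 1 and 2 and -0.10 to 0.29 with 1 library left out, and Megf10 -0.47 to 0.015. On library totals Erbb3 gave 0.073 without young libraries 1 and 2 and -0.22 to 0.0054 with 1 library left out, and Cxcr4 -0.073 to 0.078.

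With 1 library left out the ratios differed by 1.17 to 1.52 (Vcam1 to Cd34), 0.22 to 0.36 (Met to Cxcr4) and -0.31 to -0.04 (Cdh15 to Cdh2) on the log2 scale. Their adjusted p (exact permutation test) ranged with 1 library left out from 0.0429 to 0.0857 for Vcam1 to Cd34 and to 0.171 for Met to Cxcr4, with 0.0429 only without young replicate 3, where both had the smallest p and so shared the adjustment. It was 0.188 for both with the replicate block and 0.2 without young libraries 1 and 2, designs too small to pass. The filter and the shallow libraries moved how many genes were lower: 64 as deposited became 592 at a mean RPKM of 1, 24 at 10, 5988 with none, 129 without young replicate 2 and 122 without young libraries 1 and 2, and 722 on library totals became 2479, 386 and 8830 under the 3 filters. Count models in edgeR and DESeq2 were not run. Depth limits Cdh2, Erbb3 and Cxcr4 in young libraries most; the cause of these shifts was not tested.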
